A study of Mus musculus with 14 samples.

Results

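The measurements below describe 9 genes that are used as markers of adult neurogenesis and of immature neurons: Mki67 and Top2a of dividing cells, Eomes of intermediate progenitors, the transcription factors Neurod1, Sox4 and Sox11, and Igfbpl1, Dcx and Tubb3 of neuroblasts and young neurons. They were taken by gene name from both count tables, where all 9 of the 26570 genes of the basal experiment and of the 25933 genes of the learning experiment were found. The mice were males labelled as C57BL6 (the transgenic line was bred on C57BL6/J), 8 months old, and the RNA came from their dorsal hippocampus. In the basal experiment, resting mice that had not been trained were wild type (WT basal, n = 3) or carried THY-Tau22 (TAU basal, n = 2), a transgene that makes mutated human Tau in neurons after birth under the Thy1.2 promoter. In the learning experiment, every mouse had been injected weekly. WT mice were given saline and were either kept in the home cage (WT VEH_HC, n = 3) or trained in the Morris water maze (WT VEH, n = 2), a spatial memory task in which a hidden platform has to be found. THY-Tau22 mice were trained after carbon nanospheres alone (CSP; TAU VEH, n = 2) or after CSP-TTK21 (TAU MOL, n = 2), in which the nanospheres carry TTK21, an activator of the acetyltransferases CBP and p300. The vehicle was saline in WT and CSP in THY-Tau22 mice, so that genotype and vehicle cannot be told apart in the learning experiment.

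New granule neurons are made in the dentate gyrus of adult rodents. Radial glia-like stem cells give rise to dividing intermediate progenitors, then to neuroblasts, and the young neurons grow processes before they join the granule cell layer. Production falls with age in mice, and exercise, learning, stress and disease are known to act on it. In whole tissue the dividing and immature cells are a small share of all cells, and fewer cells of a type and less RNA per cell cannot be told apart in bulk libraries.

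Libraries held 28639121 to 37681155 counts in the basal and 24693713 to 52180305 in the learning experiment. Levels are given in CPM, counts scaled to a common library size with the trimmed mean of M values in each experiment alone, so that levels in the basal and the learning libraries are not tested against each other. A gene was called where its adjusted p was under 0.05 and its log2 fold change beyond 0.2 in either direction in edgeR's quasi-likelihood test over all genes that passed a filter on low counts, 16324 in the basal and 16820 in the learning experiment. All 9 genes passed it in both. Thy1, whose promoter drives the transgene, checked the genotype labels: it lay at 2097 ± 361 CPM (SD) in TAU basal and 833 ± 39.5 in WT basal, and at 1901 ± 137 in TAU VEH, 2054 ± 77.3 in TAU MOL and 820 ± 48.2 in WT VEH. Markers of mature granule cells were present in every library (summed level of 7 genes, 450 to 714 CPM). Markers of neuroblasts of the subventricular zone and olfactory bulb, which lie outside the hippocampus, summed to 46.5 to 73.8 CPM over 5 Dlx and Sp genes. Of these, Dlx1 alone had group means of 30.9 to 39.8 CPM, and which cells made the RNA of the 5 was not tested. Gad1, the other gene of that list, lay at 284 to 380 CPM and is also made by local inhibitory neurons. The replicate TAU basal 2 stood apart from the other basal libraries: its genes with an exon GC content under 45% had a median log2 ratio of 0.20 to the mean of the experiment and those of 55% or more of -0.22, against -0.11 to -0.01 and 0.01 to 0.11 in the other 4 libraries.

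None of the 9 genes passed the test in any of the 5 comparisons (0 of 9 in each by edgeR). Over all genes tested, 0.0245% were called in TAU basal vs WT basal, 8.4% in WT VEH vs WT VEH_HC, 14.4% in TAU VEH vs WT VEH, 0% in TAU MOL vs TAU VEH and 5.63% in TAU MOL vs WT VEH. An unadjusted p under 0.05 was reached in these comparisons by 1, 1, 2, 1 and 3 members, beside 4.92%, 27.8%, 27.1%, 6.33% and 19.8% of all genes tested. In TAU MOL vs TAU VEH the test made no call for any gene, while 1064 had an unadjusted p under 0.05 and DESeq2 called 56. DESeq2 called 0 of the members too, of 9, 6, 6, 4 and 2 that it gave an adjusted p in the 5 comparisons in this order. 3 of these comparisons share the WT VEH libraries. What the members' libraries show beneath these tests is described below by role, and the plot of levels by group gives every value.

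**Figure D1:**
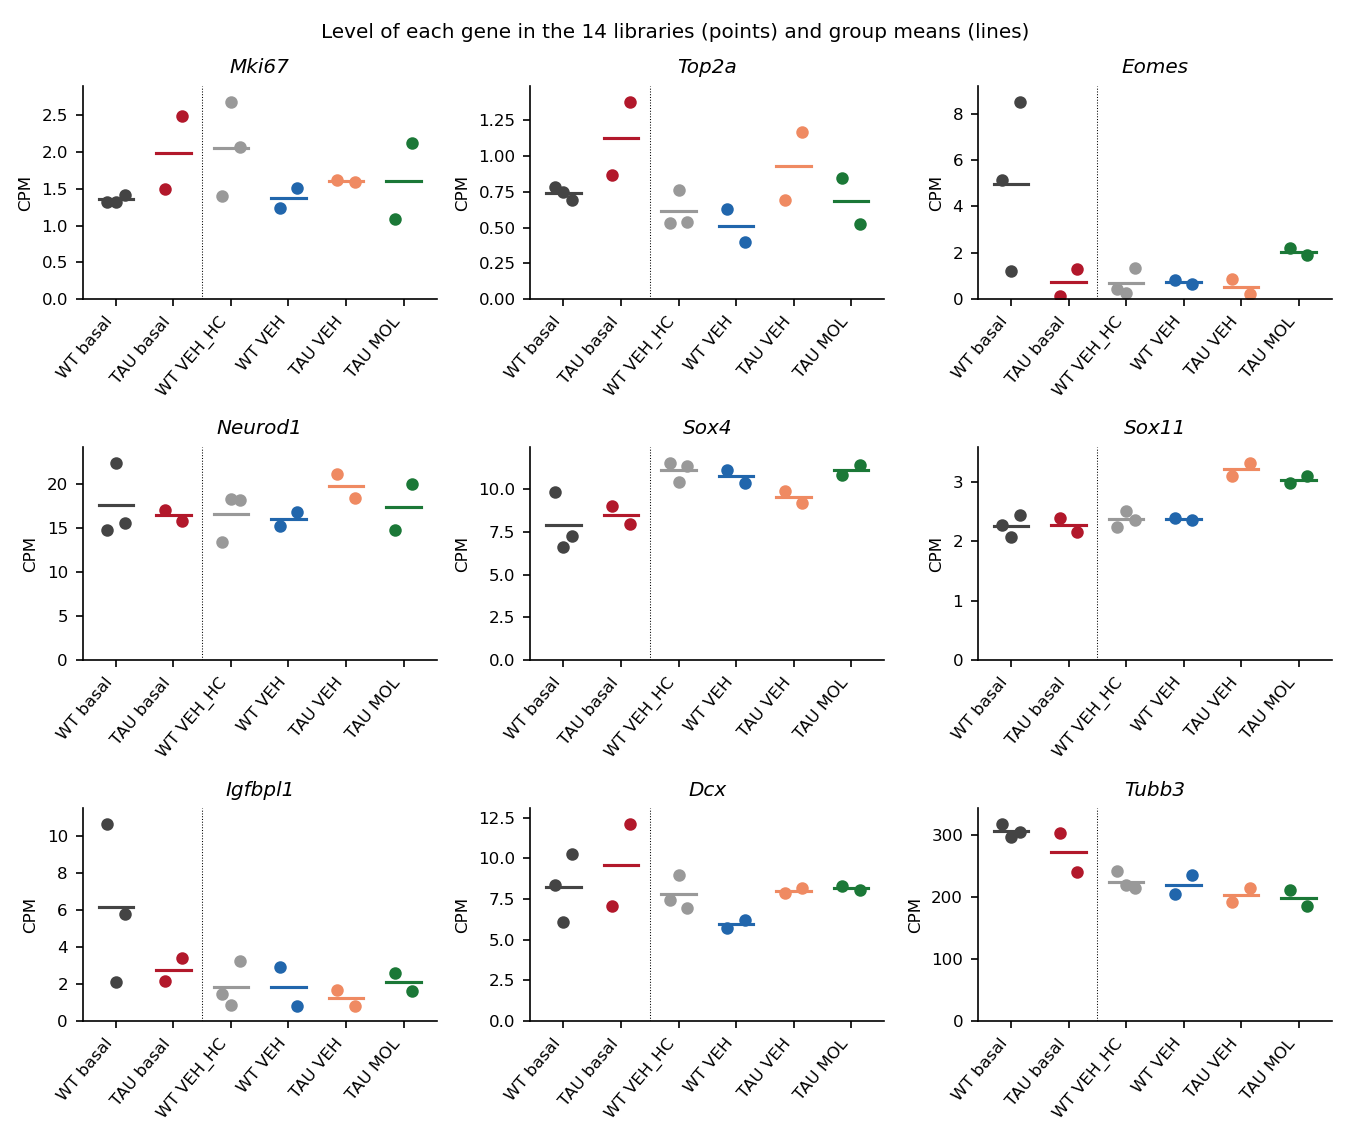
Level of the 9 genes in CPM (linear axis from 0) in each of the 14 libraries; each point is 1 library, each line the mean of its group, and the dotted line parts the basal from the learning experiment. Sox11 was above 2.9 CPM in the 4 THY-Tau22 libraries of the learning experiment alone, Dcx was lowest there in the 2 WT VEH libraries, and Eomes and Igfbpl1 spread widely within groups.

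Per kilobase of exon, the 9 genes ran over a wide range of levels. In WT basal, Tubb3, a beta-tubulin that mature neurons also make, led with 164 ± 5.61 CPM per kb (SD, n = 3), followed by Neurod1 with 6.42 ± 1.54, Igfbpl1 with 1.90 ± 1.32, Sox4 with 1.65 ± 0.358, Eomes with 1.19 ± 0.877 and Sox11 with 1.12 ± 0.0950. Dcx stood at 0.651 ± 0.163, Mki67 at 0.134 ± 0.00523 and Top2a at 0.0817 ± 0.00512 CPM per kb. From Igfbpl1 to Sox11 the neighbours in this order do not differ beyond their spread. In WT VEH the order was Tubb3, Neurod1, Sox4, Sox11, Igfbpl1, Dcx, Eomes, Mki67 and Top2a, with Eomes at 0.178 ± 0.0358 and Mki67 at 0.136 ± 0.0194 CPM per kb (n = 2). The per-kilobase level of Sox11 rests on a gene model of 1 exon and 2013 bases.

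The dividing cells were traced by 2 genes. Mki67 (chr7:142881471-142908062 in mm9, minus strand) codes for Ki-67, a protein that coats chromosomes in cycling cells. Top2a (chr11:98854257-98885503, minus strand) codes for the topoisomerase that untangles DNA before mitosis, and small nucleolar RNA genes lie within it. Their promoters are shown because these 2 members mark the same state of the cell and because promoters of cell cycle genes are known for the CCAAT box, bound by NF-Y. The windows run from 250 bases before to 50 bases after the gene start in RefSeq's mouse annotation (GRCm38.p6), and capitals mark CCAAT on either strand, which reads ATTGG where it lies on the other one.
Mki67, chr7:135716330-135716629, minus strand: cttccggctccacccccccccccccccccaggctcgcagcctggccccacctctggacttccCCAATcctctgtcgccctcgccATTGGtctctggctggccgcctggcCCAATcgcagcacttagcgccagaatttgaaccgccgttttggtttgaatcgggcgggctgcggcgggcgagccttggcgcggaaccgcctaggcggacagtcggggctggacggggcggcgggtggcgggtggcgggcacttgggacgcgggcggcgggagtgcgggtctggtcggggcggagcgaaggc
Top2a, chr11:99024140-99024439, minus strand: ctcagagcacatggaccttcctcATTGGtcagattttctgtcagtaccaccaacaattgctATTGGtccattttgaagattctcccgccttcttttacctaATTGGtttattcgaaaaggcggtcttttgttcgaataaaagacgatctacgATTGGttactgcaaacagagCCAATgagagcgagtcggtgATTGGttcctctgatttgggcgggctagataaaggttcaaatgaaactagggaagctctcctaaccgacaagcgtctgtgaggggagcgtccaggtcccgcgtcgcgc
The Top2a window held 6 CCAAT boxes and that of Mki67 held 3. Of all 32851 windows of this length, 37.4% held at least 1 and 1.06% held 4 or more. Among the members, all but Igfbpl1 had a window and 7 of these 8 held at least 1, with 4 in Sox4, 2 in Eomes, 1 each in Dcx, Sox11 and Tubb3, and 0 in Neurod1. The E-box CANNTG, the kind of site that Neurod1 binds, was in 5 of 8 members' windows against 72.3% of all windows. TGACGTCA, the full site of CREB, was in 0 of 8 against 1.79%, and its part TGACG in 0 of 8 against 20.8%. TATAAA stood in both windows of Dcx and in no other member, against 13.6% of all windows. TTTGAA, the core of the cell cycle genes homology region, was in Mki67, Top2a and Sox11, 3 of 8 members, against 17.9%.

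Mki67 lay at 1.32, 1.32 and 1.41 CPM in the WT basal libraries and at 1.49 and 2.49 CPM in TAU basal. Top2a lay at 0.784, 0.747 and 0.691 CPM in WT basal and at 0.868 and 1.38 CPM in TAU basal. Both TAU basal libraries were thus above all 3 WT basal ones for both genes, with the second TAU replicate far above the first. These 2 were the members whose libraries did not overlap in the basal comparison (2 of 9 higher, 0 lower), where 9.01% of all genes tested were higher and 9.49% lower without overlap. The log2 fold change was 0.55 for Mki67 (95% interval -0.07 to 1.18, edgeR adjusted p = 0.901) and 0.60 for Top2a (-0.11 to 1.3, adjusted p = 0.901). Without TAU basal 2, the library that stood apart, it was 0.14 for Mki67 and 0.23 for Top2a, and without TAU basal 1 it was 0.91 and 0.92. Either fit keeps 1 TAU library, which is assumed to vary as the WT libraries do. TAU basal 2 also held the highest summed level of 14 choroid plexus markers, 1326 CPM against 278 to 444 in the other basal libraries. With their mean log2 CPM as a covariate the log2 fold change was 0.13 for Mki67 (SE 0.34) and 0.19 for Top2a (SE 0.40), both at an edgeR adjusted p of 0.994.

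After the injections Mki67 lay at 1.40, 2.68 and 2.06 CPM in WT VEH_HC, 1.23 and 1.51 in WT VEH, 1.62 and 1.59 in TAU VEH, with 1.09 and 2.12 in TAU MOL. The home cage group held the highest library, and its lowest one lay among the trained ones. WT VEH vs WT VEH_HC gave a log2 fold change of -0.59 (95% interval -1.28 to 0.10, edgeR adjusted p = 0.243). Top2a lay at 0.534, 0.765 and 0.542 CPM in WT VEH_HC, 0.628 and 0.397 in WT VEH, 0.691 and 1.17 in TAU VEH, with 0.846 and 0.524 in TAU MOL. Only in TAU VEH vs WT VEH did its libraries not overlap, with a log2 fold change of 0.80 (-0.07 to 1.66, adjusted p = 0.224). Top2a rested on 15 to 41 counts a library and Mki67 on 42 to 133, so that in the learning experiment the counting error alone is 0.27 and 0.17 on the log2 scale.

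Eomes (chr9:118387330-118395250, plus strand), also called Tbr2, is the transcription factor that defines intermediate progenitors. Its counts in the WT basal libraries were 190, 43 and 271, or 5.13, 1.24 and 8.52 CPM, and in TAU basal 5 and 39, or 0.155 and 1.31 CPM. On a log scale the WT libraries spanned a wider range than those of any other member, and the second TAU library lay above the second WT library. The log2 fold change of TAU basal vs WT basal was -2.78 (SE 0.83), with an unadjusted p of 0.00722 and an edgeR adjusted p of 0.901. It was -4.99 without TAU basal 2 and -1.89 without TAU basal 1. Among the learning libraries Eomes lay at 0.458, 0.262 and 1.37 CPM in WT VEH_HC, 0.846 and 0.636 in WT VEH, 0.869 and 0.226 in TAU VEH, with 2.20 and 1.90 in TAU MOL. Both TAU MOL libraries were above the 7 others, as in 2.47% of all genes tested. Against TAU VEH the log2 fold change was 1.76 (95% interval 0.41 to 3.11, adjusted p = 0.641), and against WT VEH it was 1.47 (0.15 to 2.78, adjusted p = 0.197).

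Igfbpl1 (chr4:45822340-45839795, minus strand), an insulin-like growth factor binding protein relative found in neuroblasts, spread in the same way. It lay at 10.7, 2.1 and 5.78 CPM in WT basal and 2.17 and 3.40 in TAU basal, with a log2 fold change of -1.16 (95% interval -2.34 to 0.02, edgeR adjusted p = 0.901) that was -0.48 without WT basal 1 and -1.55 without WT basal 2. The 5 Dlx and Sp genes of the subventricular list summed to 73.8, 47.9 and 60.3 CPM in these WT and 50.5 and 51.9 CPM in these TAU libraries, and their part in the result was not tested. The learning values of Igfbpl1 were 1.47, 0.866 and 3.23 CPM in WT VEH_HC, 2.92 and 0.821 in WT VEH, 1.70 and 0.830 in TAU VEH, with 2.58 and 1.62 in TAU MOL. Every learning group overlapped every other. Within groups, the log2 CPM of Eomes had a pooled SD of 1.65 in the basal and 0.95 in the learning experiment, above those of 99.92% and 99.28% of all genes tested. For Igfbpl1 the SD was 1.0 and 0.91, above 99.17% and 99.16%. The median gene had 0.17 and 0.12, and counting error would give Eomes 0.14 and 0.22 and Igfbpl1 0.11 and 0.16.

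Zic1 to Zic5, Ebf2 and Ebf3, transcription factors known from forebrain development, were chosen after values were seen, and Ebf2 and Zic1 are among the genes nearest to these 2 members, so that what follows describes the choice and is no independent evidence. The mean log2 CPM of these 7 genes was 3.54, 1.77 and 3.64 in WT basal and 1.66 and 2.39 in TAU basal, with WT basal 1 and 3 highest, as for Eomes and Igfbpl1. In the learning libraries it was 1.72, 1.38 and 2.31 in WT VEH_HC, 2.27 and 1.5 in WT VEH, 1.85 and 1.26 in TAU VEH, with 2.37 and 1.98 in TAU MOL. The 3 learning libraries with the most Igfbpl1 were also the 3 with the highest Zic and Ebf mean. With that mean as a covariate, added after seeing the data, the log2 fold change of TAU basal vs WT basal was -1.13 for Eomes (edgeR adjusted p = 0.623) and 0.04 for Igfbpl1 (adjusted p = 0.983), and that of TAU MOL vs TAU VEH was 0.86 for Eomes (adjusted p = 0.950) and -0.47 for Igfbpl1 (adjusted p = 0.950). With the choroid plexus covariate the basal values were -3.94 and -1.55 and those of TAU MOL vs TAU VEH 0.20 and -1.03, and after the GC and length correction they were -2.73 and -1.08, and 1.74 and 0.63. Over the 14 libraries, with log2 CPM centred within each experiment and 16216 genes compared, the genes nearest to Eomes by root mean square difference were Corin at 0.39 and Ebf2 at 0.58, where Eomes itself varied by 1.43. Among the genes nearest to Igfbpl1 were Col6a3 at 0.23 and Zic1 at 0.32, where Igfbpl1 varied by 0.79.

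**Figure D2:**
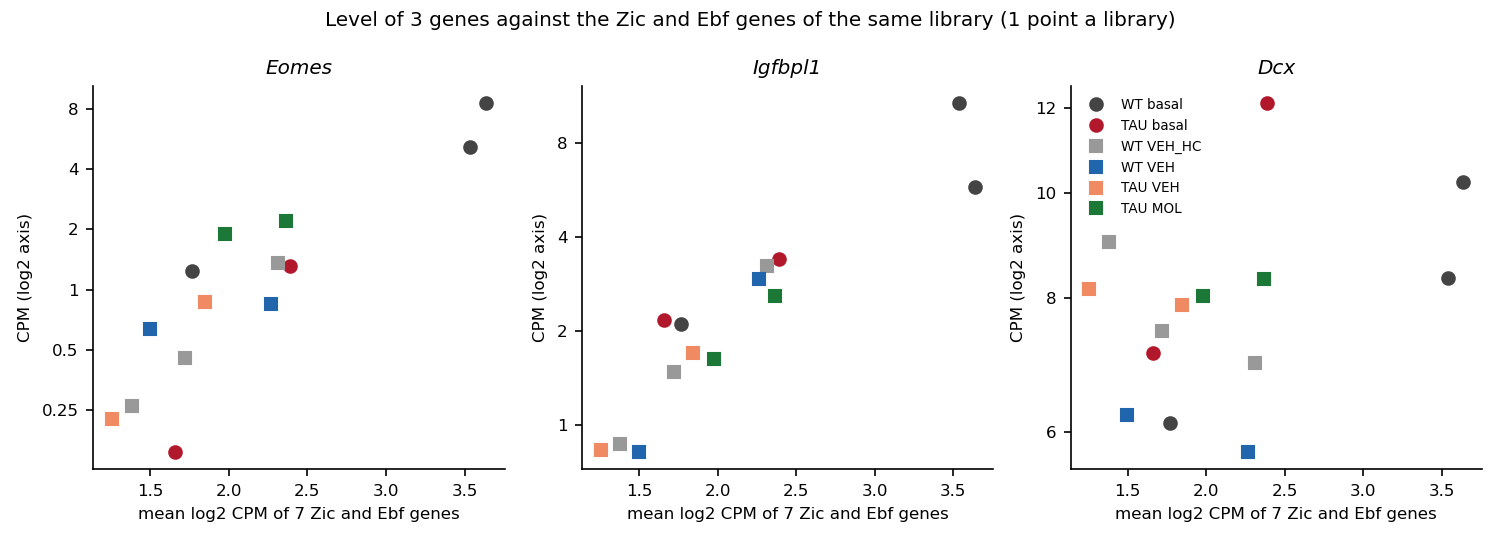
Level of Eomes, Igfbpl1 and Dcx (CPM, log2 axis) against the mean log2 CPM of 7 Zic and Ebf genes in the same library; circles are basal and squares learning libraries, coloured by group. Eomes and Igfbpl1 rose along the axis, with WT basal 1 and 3 at 3.54 and 3.64 on it, and Dcx spread less, from 5.75 to 12.1 CPM.

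Neurod1 (chr2:79292678-79296908, minus strand), a basic helix-loop-helix factor of late progenitors and young granule neurons that mature granule cells also express, lay at 14.7, 22.4 and 15.5 CPM in WT basal and 17.0 and 15.8 in TAU basal. The learning libraries stood at 13.4, 18.2 and 18.2 CPM in WT VEH_HC, 15.2 and 16.8 in WT VEH, 21.1 and 18.4 in TAU VEH, with 14.8 and 19.9 in TAU MOL. Both TAU VEH libraries were above both WT VEH ones. This gave a log2 fold change of 0.31 (95% interval -0.05 to 0.67, edgeR adjusted p = 0.263). The genes nearest to it over the 14 libraries were Mcm6 at 0.09, Synpr at 0.09 and Lrrtm4 at 0.09 (Neurod1 itself 0.21). Neurod1 lies within the span of Cerkl and opposite Gm17325, and in these unstranded libraries reads of the latter cannot be told from its own.

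Sox4 (chr13:29040788-29045582, minus strand) and Sox11 (chr12:28025562-28027574, minus strand) are SoxC factors that switch on neuronal genes in neuroblasts. Sox11 lay at 2.27, 2.07 and 2.45 CPM in WT basal and 2.39 and 2.15 in TAU basal, a log2 fold change of 0.01 (95% interval -0.49 to 0.50). In the WT mice of the learning experiment it lay at 2.24, 2.52 and 2.36 CPM in WT VEH_HC and 2.39 and 2.36 in WT VEH. It lay at 3.10 and 3.32 in TAU VEH and at 2.98 and 3.09 in TAU MOL, so that all 4 THY-Tau22 libraries were above all 5 WT ones. Of all genes tested, 10% had the 4 higher and 13.3% had them lower without overlap. The log2 fold change was 0.43 in TAU VEH vs WT VEH (0.08 to 0.78, unadjusted p = 0.0196, edgeR adjusted p = 0.101) and 0.35 in TAU MOL vs WT VEH (0.01 to 0.70, unadjusted p = 0.0448, adjusted p = 0.238). TAU MOL vs TAU VEH differed by -0.08 (-0.41 to 0.26). Whether the difference between genotypes is larger in the learning than in the basal experiment was not tested.

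Sox4 behaved otherwise. It lay at 9.86, 6.61 and 7.29 CPM in WT basal and 8.99 and 7.98 in TAU basal, and in the learning experiment at 11.5, 10.4 and 11.4 in WT VEH_HC, 11.1 and 10.4 in WT VEH, 9.91 and 9.21 in TAU VEH, with 10.8 and 11.4 in TAU MOL. Both TAU VEH libraries were the lowest of the 9, as in 11% of all genes tested. Sox4 differed by -0.17 on the log2 scale against WT VEH (95% interval -0.39 to 0.06, edgeR adjusted p = 0.352), and TAU MOL vs TAU VEH gave 0.21 (-0.02 to 0.44, adjusted p = 0.820). Sox4 overlaps Gm17419 on the other strand and a second, nested Sox4 entry.

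Dcx (chrX:140290385-140367854, minus strand) codes for doublecortin, a microtubule-binding protein that is the usual marker of neuroblasts and young neurons. Its learning libraries lay at 7.45, 9.0 and 6.96 CPM in WT VEH_HC, 5.75 and 6.22 in WT VEH, 7.88 and 8.15 in TAU VEH, with 8.32 and 8.03 in TAU MOL. The 2 WT VEH libraries were below the 7 others, a pattern that 4.48% of all genes tested had (4.79% had it in the other direction). Dcx was the single member whose libraries did not overlap in WT VEH vs WT VEH_HC (0 higher and 1 lower of 9; 23% and 20.8% of all genes tested). Its log2 fold change was -0.38 there (95% interval -0.66 to -0.11, unadjusted p = 0.0102, edgeR adjusted p = 0.0745). It was 0.42 in TAU VEH vs WT VEH (0.12 to 0.72, unadjusted p = 0.0106, adjusted p = 0.0660) and 0.45 in TAU MOL vs WT VEH (0.15 to 0.75, unadjusted p = 0.00656, adjusted p = 0.0810), and the same 2 WT VEH libraries stand in all 3. TAU MOL vs TAU VEH gave 0.03 (-0.26 to 0.33). In the basal experiment Dcx lay at 8.35, 6.12 and 10.2 CPM in WT and 7.10 and 12.1 in TAU libraries. TAU basal 1 thus lay below the WT mean of 8.24 CPM, and TAU basal 2 above every WT library. The log2 fold change was 0.22 (-0.35 to 0.79), and it was -0.21 without TAU basal 2. It was 0.62 (0.12 to 1.12, unadjusted p = 0.0210, edgeR adjusted p = 0.587) with the Zic and Ebf mean as a covariate, -0.16 (-0.89 to 0.57) with that of the choroid plexus markers and 0.02 (-0.42 to 0.46) after a correction for GC content and length.

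The adjusted p of Dcx lay just above the threshold, and several settings moved it across. It passed in WT VEH vs WT VEH_HC without WT VEH_HC replicate 3 (log2 fold change -0.46, edgeR adjusted p = 0.0302). Testing every gene with at least 1 count gave adjusted p = 0.0448 there, 0.0447 in TAU VEH vs WT VEH and 0.0408 in TAU MOL vs WT VEH. Over its alternatives the adjusted p ran from 0.0266 to 0.948 in the first comparison, from 0.0166 to 0.956 in the second and from 0.0374 to 0.544 in the third. The genes nearest to Dcx over the 14 libraries were Zfc3h1 (0.11), Mdn1 (0.11), Rnf213 (0.12), Zfp280c (0.13) and Smg1 (0.13), where Dcx itself varied by 0.26. Those nearest to Top2a were 7530420F21Rik (0.22), Gadl1 (0.24), Trim12a (0.24), Aim2 (0.25) and Isg15 (0.25), where Top2a varied by 0.39.

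Tubb3 (chr8:125935324-125945915, plus strand) lay at 317, 297 and 303 CPM in WT basal and 302 and 240 in TAU basal. Those of the learning experiment lay at 241, 218 and 214 CPM in WT VEH_HC, 204 and 236 in WT VEH, 192 and 214 in TAU VEH, with 211 and 185 in TAU MOL, and the groups of every comparison overlapped. The log2 fold changes ran from -0.17 to -0.03 over the 5 comparisons, with the widest 95% interval reaching from -0.46 to 0.12 in TAU basal vs WT basal. Its model lies within that of Gm20388.

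**Figure D3:**
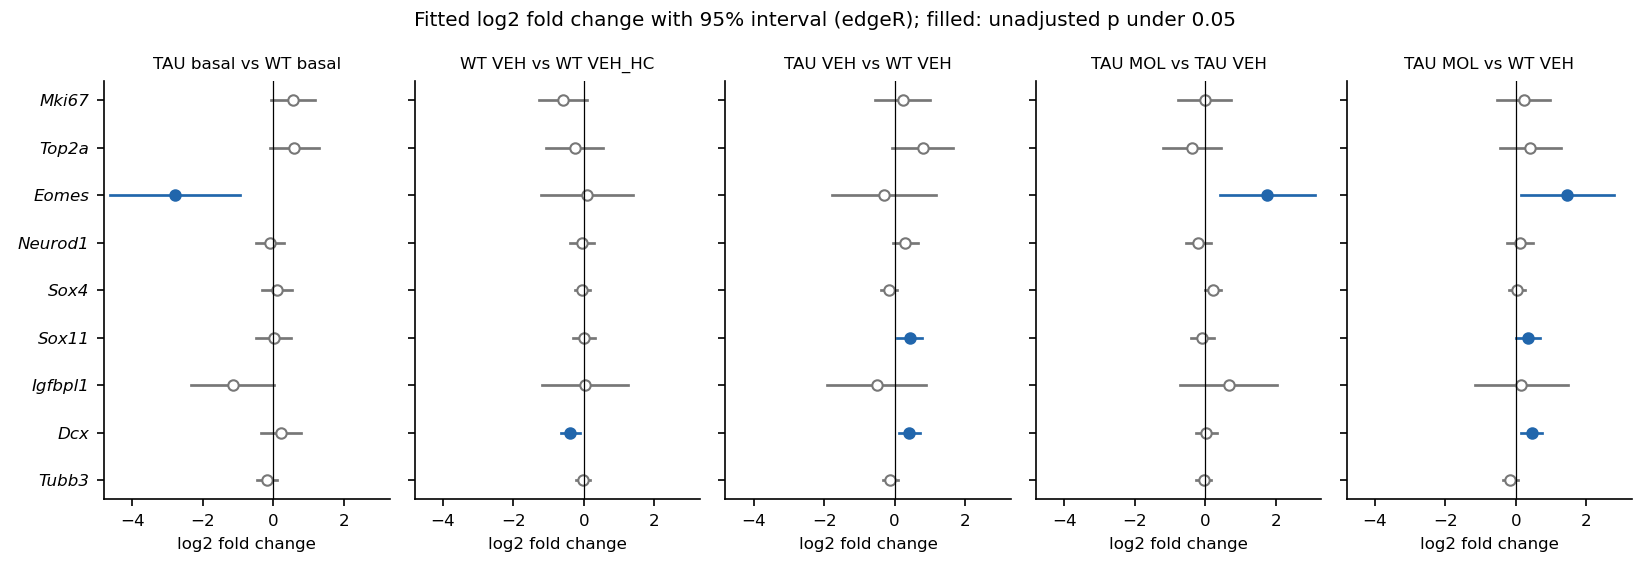
Fitted log2 fold change of the 9 genes (points) with its 95% interval (lines) in the 5 comparisons, first group over second; filled points have an unadjusted p under 0.05, and none was called. The intervals of Dcx lay below 0 in WT VEH vs WT VEH_HC and above 0 in both comparisons of trained THY-Tau22 mice with WT VEH.

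Over all 9 genes, the median log2 fold change was 0.01 in TAU basal vs WT basal, -0.05 in WT VEH vs WT VEH_HC, 0.23 in TAU VEH vs WT VEH, -0.01 in TAU MOL vs TAU VEH and 0.22 in TAU MOL vs WT VEH, where the median of all genes tested was between -0.01 and 0.01. In TAU VEH vs WT VEH, 5 members were higher and 1 (Sox4) lower without overlap, beside 28.5% and 29.4% of all genes tested. In TAU MOL vs TAU VEH, Eomes and Sox4 were higher and Sox11 lower (21.5% and 17.4% of all genes), and in TAU MOL vs WT VEH, Eomes, Sox11 and Dcx were higher and 0 lower (25.6% and 26.9%). With library sizes alone in place of the trimmed mean, the median of all genes moved to 0.15 in TAU VEH vs WT VEH and 0.12 in TAU MOL vs WT VEH. The log2 fold change of Dcx was then 0.57 in each, and that of Sox11 0.58 and 0.48.

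The GC content of the exons moved with the comparisons between trained THY-Tau22 and WT VEH mice. In TAU VEH vs WT VEH the median log2 fold change was 0.16 in genes under 45% GC, 0.02 between 45% and 55%, and -0.25 in genes of 55% or more. Dcx has 39.5%, Top2a 41.8%, Neurod1 43.6%, Mki67 46.6%, Sox4 51.1%, Eomes 52.7%, Igfbpl1 55.1%, Tubb3 57.9% and Sox11 62.8%. The 4 members with the lowest GC content all had a log2 fold change above 0 in that comparison, and of the other 5 Sox11 did. After a correction for GC content and length Dcx fell to 0.13 (edgeR adjusted p = 0.700) and Top2a to 0.57 (adjusted p = 0.524), while Sox11 stood at 0.76 (SE 0.15, adjusted p = 0.0215). In TAU MOL vs WT VEH the corrected values were 0.23 for Dcx (adjusted p = 0.538) and 0.58 for Sox11 (adjusted p = 0.144). In WT VEH vs WT VEH_HC the corrected Dcx value was -0.44 (adjusted p = 0.0691).

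**Figure D4:**
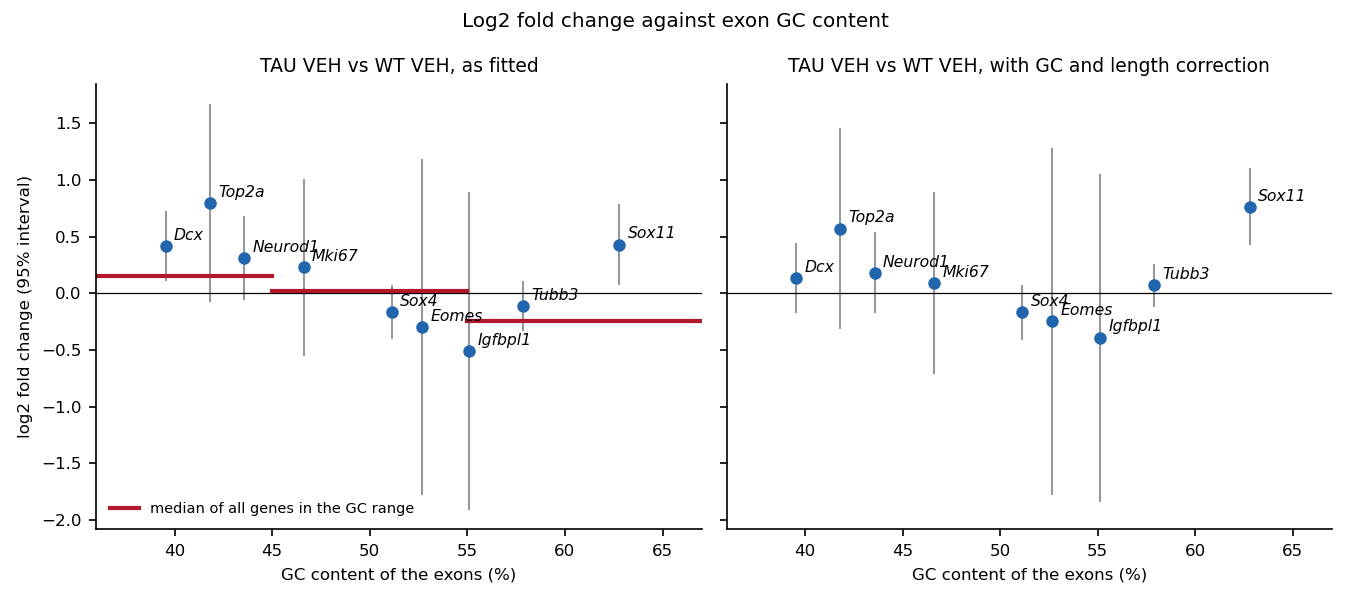
Log2 fold change of the 9 genes in TAU VEH vs WT VEH (points, with 95% intervals) against the GC content of their exons, as fitted (left) and after correction for GC content and length (right); red lines are medians of all genes tested in 3 GC ranges. Sox11, the member with the highest GC content (62.8%), stood above 0 where the median of its range was -0.25.

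Markers of the choroid plexus, the epithelium beside the dorsal hippocampus that makes cerebrospinal fluid, also set WT VEH apart from the other learning groups. Their summed level over 14 genes was 2454 and 1594 CPM in WT VEH, and TAU MOL followed with 719 and 786 CPM, TAU VEH with 243 and 290 CPM and WT VEH_HC with 80.1 to 239 CPM, and none of the 14 was at 0 in any library. Of these markers 14 of 14 were called higher in WT VEH vs WT VEH_HC, 13 lower in TAU VEH vs WT VEH and 8 lower in TAU MOL vs WT VEH. Of the 14, 12 had an unadjusted p under 0.05 in TAU MOL vs TAU VEH, where edgeR called no gene, with a median log2 fold change of 1.06 over the list. With their mean log2 CPM as a covariate the log2 fold change of Dcx was 0.31 (SE 0.37, edgeR adjusted p = 0.948) in WT VEH vs WT VEH_HC and -0.04 (SE 0.27, adjusted p = 0.956) in TAU VEH vs WT VEH, and 0 of 16820 genes were called in either (1413 and 2423 without it). The choroid plexus level and the group cannot be told apart in these libraries.

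The wider programme was read from 64 further genes in 4 lists, of which 60 passed the filter on low counts. The stem cell list holds radial glia-like stem cell genes, the cell cycle list replication and mitosis genes, the neuroblast list other genes of immature neurons, and the niche list secreted signals that act on progenitors. In TAU basal vs WT basal 0 of 60 were called (0.00613% of all genes tested were called higher and 0.0184% lower), with 5 at an unadjusted p under 0.05, DESeq2 called 0, and testing every gene with at least 1 count gave 1 lower. The 2 neuroblast genes with the lowest p were Calb2, a calcium-binding protein of immature granule cells and some interneurons, with a log2 fold change of -1.86 (edgeR adjusted p = 0.901), and Stmn1 with -0.31 (adjusted p = 0.901). Calb2 lay at 17.2 ± 8.87 CPM (SD) in TAU basal and 62.2 ± 48.1 in WT basal, within the spread of WT. Among stem cell genes Id4 had -0.30 and Lpar1 -0.40, among cell cycle genes Ccnd2 -0.22 and Birc5 0.59, and among niche genes Igf2 0.61 and Fgf2 1.04 (adjusted p = 0.901 for each of the 6).

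In WT VEH vs WT VEH_HC, 2 of the 60 were called, 1 higher and 1 lower, beside 5.35% and 3.05% of all genes tested. Vegfa, the endothelial growth factor that also acts on progenitors, rose from 34.3 ± 1.74 to 46.6 ± 3.81 CPM (log2 fold change 0.44, edgeR adjusted p = 0.00747). Ncam1, the adhesion molecule whose polysialylated form marks young neurons, fell from 337 ± 9.48 to 286 ± 0.605 CPM (log2 fold change -0.23, adjusted p = 0.0371). Of 18 cell cycle genes tested none was called and 5 had an unadjusted p under 0.05 (beside 27.8% of all genes tested), 3 with a negative and 2 (Cdk1 and Pcna) with a positive log2 fold change. The lowest p were those of Mcm2 of the replicative helicase (log2 fold change -0.51, adjusted p = 0.0503) and Ube2c (-0.70, adjusted p = 0.137). Of 13 stem cell genes none was called and 7 had an unadjusted p under 0.05, 4 with a positive and 3 (Nes, Sox2 and Vim) with a negative log2 fold change. Those with the lowest were Id4 (0.33, adjusted p = 0.0503) and Prom1 (0.39, adjusted p = 0.0620). DESeq2 called 3 higher and 3 lower of the 60. Testing every gene with at least 1 count gave 7 higher and 10 lower, and a replicate block gave 7 and 5. After the GC and length correction 1 was called higher and 0 lower, and with the choroid plexus covariate 0 were called. Without WT VEH replicate 1 the count was 0, and without WT VEH_HC replicate 3 it was 6 higher and 3 lower.

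In TAU VEH vs WT VEH, 8 of the 60 were called, 7 lower and 1 higher, beside 10.8% and 3.61% of all genes tested. The stem cell genes Msi1, an RNA-binding protein, and Hes5, a Notch target, fell from 54.6 ± 5.89 to 32.5 ± 1.07 CPM (log2 fold change -0.75, edgeR adjusted p = 0.00229) and from 7.92 ± 0.596 to 5.38 ± 0.347 CPM (-0.57, adjusted p = 0.0242). The neuroblast genes Dpysl5 (-0.45), Fxyd7 (-0.44), Insm1 (-0.42) and Neurod2 (-0.33) fell too, with adjusted p between 0.00354 and 0.0280. Of the niche genes Igf2, which the choroid plexus also makes, fell by 1.51 on the log2 scale (adjusted p = 0.0327), and Wnt3 rose by 0.68 (adjusted p = 0.0396). All 7 that fell have an exon GC content of 55.1% to 63.1%, Wnt3 has 52.6%, and after the GC and length correction 0 of the 60 were called, with 15 at an unadjusted p under 0.05. Of 18 cell cycle genes none was called. Prc1 had the lowest p (0.64, adjusted p = 0.0957), and Birc5 followed with -1.13 (adjusted p = 0.186). With library sizes alone the split was 5 higher and 3 lower, and testing every gene with at least 1 count gave 3 higher and 9 lower. Leaving out TAU VEH replicate 1 or 2 left 1 and 2 called lower, and leaving out WT VEH replicate 1 or 2 left 4 and 2.

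**Figure D5:**
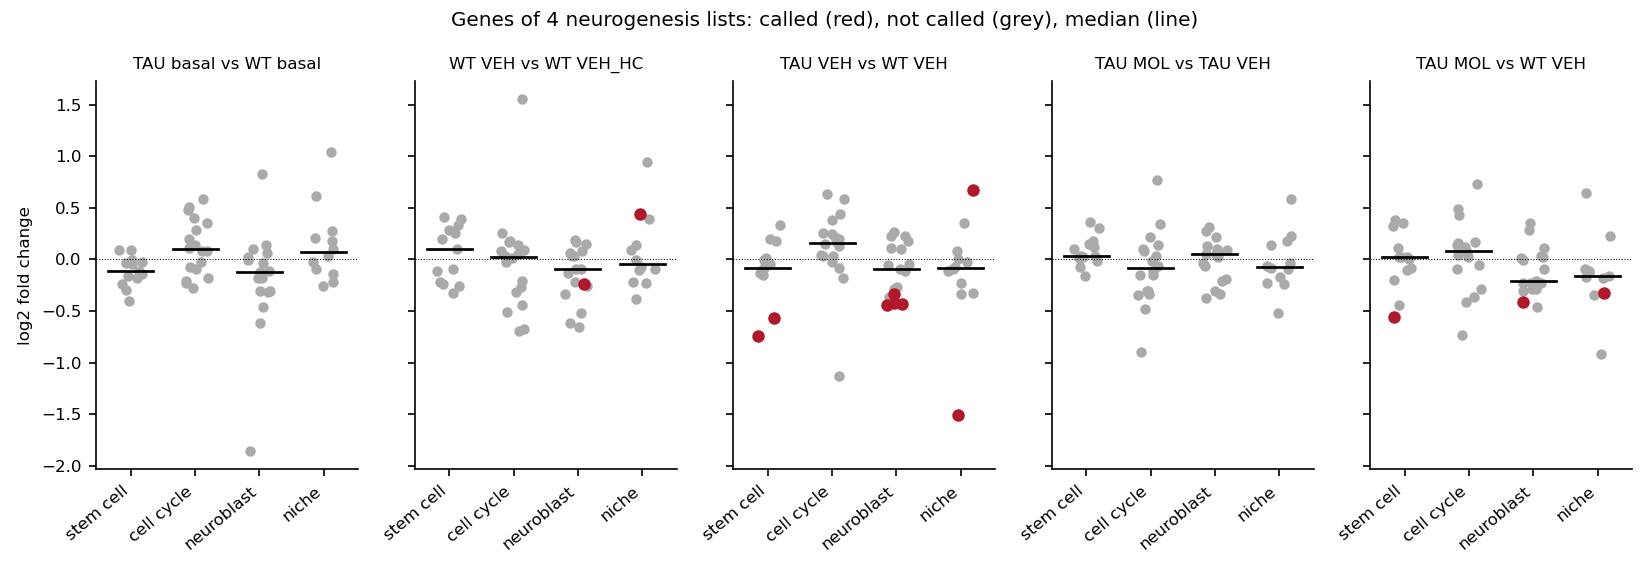
Log2 fold change of the genes of 4 neurogenesis lists in the 5 comparisons; each point is 1 gene tested, red where called and grey where not, and each black line is the median of its list. Called genes stood mainly in TAU VEH vs WT VEH, with 7 below 0 and 1 above of 60 tested. Of all genes tested, 10.8% were called lower and 3.61% higher there, the comparison with the largest share called (14.4%).

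In TAU MOL vs TAU VEH 0 of the 60 were called, with 6 at an unadjusted p under 0.05, and DESeq2 called 0. Testing every gene with at least 1 count gave 2 higher and 4 lower, and fitting only the 2 groups compared gave 1 higher and 1 lower. Of the neuroblast genes Stmn2 (log2 fold change -0.34, edgeR adjusted p = 0.417) and Stmn1 (0.28, adjusted p = 0.641), which code for regulators of microtubules, had the lowest p. The others with the lowest p of their lists were Frzb (-0.52) and Igf1 (0.23) of the niche, Msi1 (0.31) and Thbs4 (0.36) of the stem cells and Ccnd2 (-0.31) and Mcm2 (-0.31) of the cell cycle, with adjusted p of 0.608 to 0.884. Msi1 lay at 40.3 ± 1.26 CPM in TAU MOL, between TAU VEH and WT VEH. In TAU MOL vs WT VEH 3 were called, 0 higher and 3 lower, beside 0.612% and 5.02% of all genes tested: Hes5 (-0.55, adjusted p = 0.0475), Fxyd7 (-0.41, adjusted p = 0.0384) and Vegfa (-0.33, adjusted p = 0.0374), and 0 were called without any 1 of its 4 libraries. With library sizes alone the split was 3 higher and 0 lower, and after the GC and length correction 0 of the 60 were called. Among cell cycle genes Nusap1 (0.73, adjusted p = 0.118) and Prc1 (0.49, adjusted p = 0.275) had the lowest p. In the 4 learning comparisons the median log2 fold change of a list stayed between -0.21 and 0.16, the former in the neuroblast list of TAU MOL vs WT VEH and the latter in the cell cycle list of TAU VEH vs WT VEH.

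Markers of other cells were read in the same way. In TAU VEH vs WT VEH, where 10.8% of all genes tested were called lower, 2 of 7 markers of oligodendrocyte precursors (Cspg4 and C1ql1), which also divide in the adult hippocampus, 2 of 5 general neuronal markers (Rbfox3 and Eno2) and 1 of 6 microglia markers (Tmem119) were called lower. In TAU MOL vs WT VEH, with 5.02% of all genes called lower, Eno2 and Tmem119 were. P2ry12, 1 of the 6 microglia markers, was called higher in WT VEH vs WT VEH_HC, where 5.35% of all genes tested were called higher and 3.05% lower. Of these 3 lists 0 were called in the other comparisons, and of the endothelial and subventricular markers none was called in any comparison. Of the 7 markers of mature granule cells tested, C1ql2 was called lower in WT VEH vs WT VEH_HC (141 ± 19.1 against 239 ± 51.4 CPM, edgeR adjusted p = 0.0368), where the mature cells' summed level was 465 and 495 CPM in WT VEH and 506 to 696 in WT VEH_HC. The part of these in the members' values was not tested.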

How the data were processed

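RNA-seq of the dorsal hippocampus was read from 14 libraries, 5 basal and 9 of the learning experiment, grouped by their labels. According to the submitters' processing notes the authors used CASAVA 1.8.2, TopHat2 2.0.10, Bowtie2 2.1.0, HTSeq 0.5.4p3 and DESeq2. The deposited counts are whole reads per Ensembl gene (mm9), uniquely aligned, from unstranded poly-A libraries. The deposited columns of normalized signal, counts divided by 1 size factor per library, were not used, nor were the columns that hold the authors' own fold changes and p-values. Of the learning counts, 138 lines held no values and were dropped.

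The counts were tested with edgeR 4.0.16 (R 4.3.3; trimmed mean of M values, default filter on low counts, quasi-likelihood F test, Benjamini-Hochberg adjustment over all genes tested), with 1 fit per experiment and group means only. DESeq2 1.42.0, other scalings and filters, a correction for GC content and length, a replicate block, marker covariates and each left-out library were alternatives. The fit was tested on simulated data with known changes in genes that had more counts than Top2a. Of log2 changes of 0.5 it called 19% in TAU basal vs WT basal and 43% to 62% in the learning comparisons. Of log2 changes of 1 it called 87% to 93%. The members and lists were chosen with earlier results of these data known. All members are named. Of the stem cell, cell cycle, neuroblast and niche lists the called genes are named or, where a list had none, the 2 with the lowest p. Lists of other cell types are given by counts, with genes named where few were called. Also named are the genes nearest to Dcx and Top2a by a stated rule. Those nearest to Eomes, Igfbpl1 and Neurod1 were chosen after values were seen. 1 gene near to Igfbpl1 is not reported here. Draxin and Map2 were not found by name, and Ntng1 had 2 entries and was left out. Positions and GC content came from an annotation of the same build. GC content was known for 99.8% of genes tested. The labels do not say whether mice of a group shared a litter, so the p-values measure the spread between these libraries. The study had left out further learning libraries for their variability, which were not analysed here. Counting errors cover sampling of reads only.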

Additional observations from a re-analysis of the deposited data

How the results depend on the processing

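Of the 45 log2 fold changes of the members, 729 alternative values were computed. Of these, 639 kept their direction and their side of the threshold, and 22 passed it. A further 57 changed the sign of a value within its error, and 11 changed the sign of a larger one. Shifts in size that kept the sign and the side of the threshold were not counted, however large. The number of members called, 0 in each comparison, became 1 with every gene of at least 1 count in TAU basal vs WT basal (Eomes), in WT VEH vs WT VEH_HC (Dcx) and in TAU MOL vs TAU VEH (Eomes), and 2 in TAU VEH vs WT VEH (Neurod1 and Dcx) and in TAU MOL vs WT VEH (Eomes and Dcx). With only the 2 groups compared in the fit it became 2 in each of the last-named (the same names). With library sizes alone it was 2 in TAU VEH vs WT VEH (Sox11 and Dcx) and 1 in TAU MOL vs WT VEH (Dcx), with the GC and length correction 1 in TAU VEH vs WT VEH (Sox11), and with the Zic and Ebf covariate, added after seeing the data, 1 in TAU MOL vs WT VEH (Dcx). Leaving out 1 library gave 0 to 1 in WT VEH vs WT VEH_HC (Dcx, without WT VEH_HC replicate 3) and 0 in the other comparisons. Where that left a group of 1 library, it was assumed to vary like the other groups. Beyond the tests' own construction, the cause was not tested.

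The labels do not say whether the replicate numbers pair the samples. Deviations of same-numbered libraries from their group means correlated across genes at -0.16 to 0.24. With 2 or 3 libraries a group this can neither show nor exclude a pairing. With the replicate block the count was 1 in WT VEH vs WT VEH_HC (Dcx), 1 in TAU VEH vs WT VEH (Dcx) and 1 in TAU MOL vs WT VEH (Eomes), and with the block and the GC and length correction 1 in WT VEH vs WT VEH_HC (Dcx) and 1 in TAU VEH vs WT VEH (Sox11).

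Among values larger than their error, the sign turned with the choroid plexus covariate for Mki67 (0.14) and Dcx (0.31) in WT VEH vs WT VEH_HC, for Dcx (-0.042) in TAU VEH vs WT VEH and for Igfbpl1 (-1.03) in TAU MOL vs TAU VEH. It turned with the Zic and Ebf covariate for Igfbpl1 in TAU basal vs WT basal (0.036) and in TAU MOL vs TAU VEH (-0.47). Tubb3 turned in TAU VEH vs WT VEH with library sizes alone (0.033), with the GC and length correction (0.0717) and with that and the replicate block (0.0712), and in TAU MOL vs WT VEH with the GC and length correction (0.0004). Neurod1 turned in TAU MOL vs TAU VEH without TAU MOL replicate 1 (0.0088); over its left-out libraries the value ran from -0.42 to 0.0088.

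Over all genes, the block changed the calls from 1413 to 3000 in WT VEH vs WT VEH_HC, and the GC and length correction changed them from 2423 to 554 in TAU VEH vs WT VEH and from 947 to 22 in TAU MOL vs WT VEH. With library sizes alone 2578 genes were called higher and 1020 lower in TAU VEH vs WT VEH, against 608 and 1815. Depth was lowest for Top2a by the mean count (29.2 basal, 27.8 learning), while single libraries held as few as 5 counts of Eomes.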
